A study of Mus musculus with 18 samples.

Results

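10 genes of Wnt signalling were followed across all 18 RNA-seq libraries of the study. They are the secreted frizzled-related proteins Sfrp1, Sfrp2, Sfrp4 and Sfrp5, the Dickkopf proteins Dkk2 and Dkk3, the target gene Axin2, and the receptors Fzd1, Fzd4 and Lrp5. The genes were picked by symbol, with earlier results of these data known. Values set beside those of all genes therefore describe the set and do not test it. All were found, 10 of 10, among 25209 symbols in the tissue tables and 24825 in the culture tables. Polyadenylated RNA was taken from the white fat of the mouse groin (inguinal white adipose tissue, iWAT) and from cultured stromal-vascular cells of the same fat. The 6 groups of 3 libraries were iWAT of wild-type (WT) mice, iWAT of NFIA-Tg mice, and WT and NFIA-Tg cultures at day 0 (before adipogenic induction) and at day 7 (after it). NFIA-Tg denotes a transgene for the transcription factor NFIA, while its promoter, the mice's age and how many mice were used were not stated in the sources used. The induction cocktail held isobutylmethylxanthine, indomethacin, dexamethasone, insulin, T3 and rosiglitazone, and insulin, T3 and rosiglitazone were kept on afterwards. The cultures of both genotypes received it.

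Wnt ligands are secreted lipid-modified proteins that bind a Frizzled receptor together with the co-receptor LRP5 or LRP6. In the canonical branch this stops the destruction of β-catenin, which then enters the nucleus, joins TCF/LEF factors and switches on targets such as Axin2, itself an inhibitor that closes a feedback loop. SFRPs carry a Frizzled-like domain and can bind Wnt proteins outside the cell, while Dickkopf proteins such as DKK2 act on LRP5/6. In fat, canonical Wnt signalling is known for holding preadipocytes in the undifferentiated state.

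Levels are in FPKM, fragments counted per kilobase of a gene's length and scaled to library size. Changes are differences of log2(FPKM + 1), a scale that understates changes of low genes, and are given ± SE from limma fitted over all genes tested. A gene was called at a Benjamini-Hochberg adjusted p under 0.05 over those genes. Library totals were 16772594 to 28625625 recovered reads in the cultures, and the read depth of iWAT is unknown. No library stood apart, with correlations of 0.988 or more across genes within each group. The origin of the replicates (separate mice, separate dishes) is not stated, and a p-value here reflects the spread between libraries alone, which may be technical. Nfia was at 3.73 to 4.19 FPKM in WT iWAT and at 99.6 to 166 FPKM in NFIA-Tg iWAT. At day 0 it was 6.3 to 6.51 FPKM in WT and 11.3 to 12.5 FPKM in NFIA-Tg. At day 7 the order went against the labels, at 12 to 13 FPKM in WT and 6.44 to 7.32 FPKM in the libraries labelled NFIA-Tg, so culture groups are named by label only. Adipoq, which encodes the adipokine adiponectin, averaged 2900 and 2110 FPKM in WT and NFIA-Tg iWAT, under 1 FPKM in both day 0 groups, and 1290 and 258 FPKM in WT and NFIA-Tg at day 7. The labelled tissue and the differentiated cultures therefore carried adipocyte transcript, with less Adipoq in the day 7 cultures labelled NFIA-Tg.

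**Figure D1:**
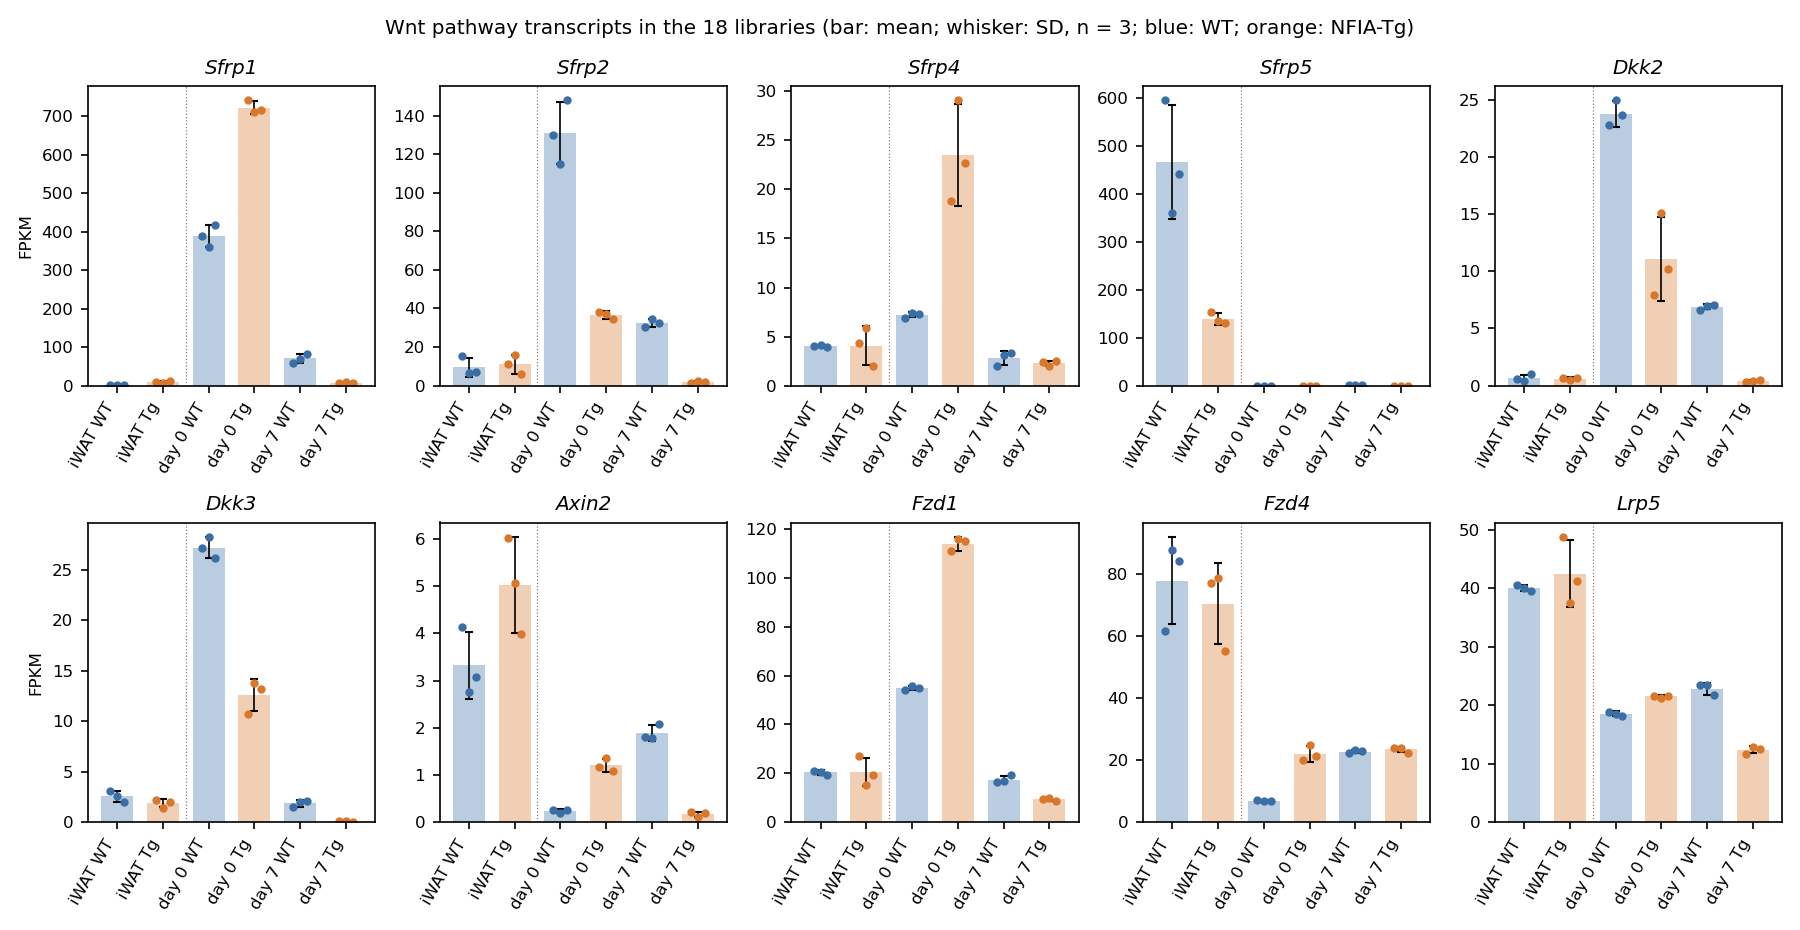
FPKM of the 10 Wnt pathway genes in each of the 18 libraries (points), with the group mean (bar) and SD (whisker, n = 3). WT is blue and NFIA-Tg orange, and the dotted line parts the iWAT tables from the culture tables. Sfrp5 stands at 130 to 596 FPKM in iWAT and at no more than 0.239 FPKM in any culture, while Sfrp1 is highest in the day 0 cultures labelled NFIA-Tg.

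In iWAT the secreted antagonists Sfrp5 and Sfrp1 differed between genotypes, in opposite directions. Of the 9 genes that passed the filter of 1 FPKM in 3 libraries, 1 was called higher and 1 lower in NFIA-Tg, against 11.4% of all 12396 genes called in either direction (5.96% higher, 5.44% lower). Their median log2 change was −0.02, and that of all genes tested 0.05. Sfrp5, a secreted antagonist abundant in white fat, had WT values of 596, 361 and 442 FPKM and NFIA-Tg values of 154, 134 and 130 FPKM. The groups did not overlap, and the WT mean was 3.35 times the NFIA-Tg mean (log2 change −1.71 ± 0.18, adjusted p = 0.00166). Sfrp1, the relative that is abundant in cultured stromal cells, was at 1.61, 1.09 and 2.21 FPKM in WT and at 8.21, 7.23 and 11 FPKM in NFIA-Tg. Sfrp1 was thus low in every WT library and 5.39 times as high on average in NFIA-Tg (log2 change 1.90 ± 0.20, adjusted p = 0.00166). Both calls held in each of the 17 alternative analyses. In WT iWAT the mean Sfrp5 level was 467 ± 120 FPKM and the mean Sfrp1 level 1.64 ± 0.562 FPKM (SD, n = 3). In NFIA-Tg iWAT they were 139 ± 13.2 and 8.83 ± 1.98 FPKM, so Sfrp5 remained the more abundant transcript of the pair. In bulk tissue, fewer cells of a type and less RNA per cell cannot be told apart.

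The other genes of the set did not pass the test in iWAT. Sfrp2, another secreted Wnt-binding protein, was at 15.1, 6.53 and 6.82 FPKM in WT and at 11.3, 15.8 and 6.1 FPKM in NFIA-Tg. Sfrp4 was at 3.93 to 4.09 FPKM in WT, a narrow range, and at 1.98 to 5.87 FPKM in NFIA-Tg. Both genes overlapped between genotypes, with adjusted p of 0.749 for Sfrp2 and 0.906 for Sfrp4. Axin2, whose transcript is a common readout of β-catenin activity, was at 4.13, 2.76 and 3.07 FPKM in WT and at 6.03, 5.06 and 3.99 FPKM in NFIA-Tg. The lowest NFIA-Tg value lay just below the highest WT value (log2 change 0.48 ± 0.18, adjusted p = 0.120). The receptors were abundant, and none of the 3 was called. Fzd4 averaged 77.8 ± 14.1 and 70.4 ± 13.1 FPKM, Lrp5 40 ± 0.499 and 42.5 ± 5.79 FPKM, and Fzd1 20.3 ± 0.999 and 20.5 ± 5.89 FPKM, in WT and NFIA-Tg (SD, n = 3). Dkk3, a divergent Dickkopf protein, was at 2.02 to 3.08 FPKM in WT and 1.41 to 2.14 FPKM in NFIA-Tg (adjusted p = 0.272). Dkk2 stayed under 1 FPKM in all 6 libraries and was not tested.

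Markers of other cells moved in iWAT as well, where 11.4% of all genes were called (5.96% higher, 5.44% lower). Of 8 endothelial markers, 4 were lower in NFIA-Tg, and their summed level was 697 to 739 FPKM in WT and 367 to 495 FPKM in NFIA-Tg. Of 8 adipocyte markers 1 was higher, with sums of 38000 to 41200 and 34100 to 45000 FPKM that overlapped. Of 8 fibroblast and progenitor markers 0 were called by limma, with sums of 863 to 986 and 816 to 1080 FPKM. Skeletal muscle markers (5 genes) summed to 123 to 183 FPKM in WT and 12.8 to 38.3 FPKM in NFIA-Tg, with 1 lower of 2 tested. Macrophage markers (6 genes) summed to 482 to 612 and 400 to 504 FPKM, and 0 of 6 were called. Of 8 pericyte and smooth muscle markers 1 was higher, with sums of 379 to 580 and 329 to 434 FPKM. Mammary epithelial markers were at 0 in all WT libraries and summed to at most 0.785 FPKM in NFIA-Tg. The part of these cells in the Sfrp5 and Sfrp1 differences was not tested.

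Promoter sequence helps to place the genes. RefSeq-based promoters (GRCm38.p6, 250 bases before to 50 after the annotated start) were available here for 6 of the 10 genes. The submitters' notes name the older build mm9, and no measured position was mapped to GRCm38. Each promoter was searched on both strands for the full NFI site (TTGGC and GCCAA with any 5 bases between them), for the TTGGC core alone, which is part of the full site, and for the TCF/LEF core CTTTGA. Across 32851 promoters of the same length, 0.0365% held the full site, 46.7% the TTGGC core and 16.0% the TCF/LEF core. None of the 6 promoters held the full site in this window. The 4 sequences below are those of the gene that was lower in NFIA-Tg iWAT, of a gene lower in both culture comparisons, of the β-catenin target, and of the only promoter of the 6 with a TCF/LEF core. They read 5′ to 3′ on the gene's strand, with motif matches in capitals (TTGGC or its complement GCCAA, and TCAAAG, the complement of CTTTGA).
Sfrp5 (chr19:42202203-42202502, minus strand): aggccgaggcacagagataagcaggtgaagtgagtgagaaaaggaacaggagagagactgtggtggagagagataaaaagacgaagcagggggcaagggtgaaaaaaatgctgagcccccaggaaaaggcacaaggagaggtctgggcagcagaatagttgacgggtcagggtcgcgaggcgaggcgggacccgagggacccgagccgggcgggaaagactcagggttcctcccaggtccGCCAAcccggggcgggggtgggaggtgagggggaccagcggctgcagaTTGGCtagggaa
Sfrp2 (chr3:83766071-83766370, plus strand): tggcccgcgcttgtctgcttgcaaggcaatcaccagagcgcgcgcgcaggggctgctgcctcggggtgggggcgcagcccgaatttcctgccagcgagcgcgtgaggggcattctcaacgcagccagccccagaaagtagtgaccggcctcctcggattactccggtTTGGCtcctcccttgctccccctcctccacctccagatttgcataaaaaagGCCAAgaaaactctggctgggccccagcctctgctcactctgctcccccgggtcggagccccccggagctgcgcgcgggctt
Axin2 (chr11:108920099-108920398, plus strand): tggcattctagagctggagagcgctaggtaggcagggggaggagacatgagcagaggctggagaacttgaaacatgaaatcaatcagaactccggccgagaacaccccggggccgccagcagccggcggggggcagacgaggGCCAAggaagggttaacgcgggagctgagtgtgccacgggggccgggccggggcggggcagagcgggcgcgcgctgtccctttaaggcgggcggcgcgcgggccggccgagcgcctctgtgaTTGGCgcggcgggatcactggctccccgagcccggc
Fzd1 (chr5:4758167-4758466, minus strand): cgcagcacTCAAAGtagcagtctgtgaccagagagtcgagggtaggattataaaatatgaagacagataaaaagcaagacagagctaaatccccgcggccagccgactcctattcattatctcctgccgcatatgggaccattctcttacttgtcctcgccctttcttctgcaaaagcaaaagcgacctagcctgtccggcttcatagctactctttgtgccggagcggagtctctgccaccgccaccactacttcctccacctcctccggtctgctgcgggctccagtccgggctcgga
Sfrp5, Sfrp2 and Axin2 each had 2 TTGGC cores, Fzd4 had 1, and Dkk2 and Fzd1 had 0. Counted from the start site, the first base of each match lay at −10 and 39 in Sfrp5, at −83 and −32 in Sfrp2 and at −108 and 15 in Axin2. The TCF/LEF core of Fzd1 lay at −242. A match describes these letters and no binding was measured.

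At day 0, before induction, 6 of the genes were higher and 3 lower in the cultures labelled NFIA-Tg than in WT. These 9 were the genes that passed the filter, and 63.0% of all 12553 genes tested were called in either direction (28.1% higher, 34.9% lower). The median log2 change was 0.83 over the 9 genes and −0.03 over all genes. Among the SFRPs, Sfrp1 and Sfrp4 rose and Sfrp2 fell. Sfrp1 was one of the abundant transcripts of these cells, at 388, 361 and 418 FPKM in WT and at 741, 711 and 716 FPKM in NFIA-Tg. The groups lay far apart, and NFIA-Tg was 1.86 times as high (log2 change 0.89 ± 0.10, adjusted p = 1.07e-05). Sfrp4 was at 6.93, 7.45 and 7.3 FPKM in WT and at 18.8, 29.1 and 22.7 FPKM in NFIA-Tg. Sfrp4 was higher in every NFIA-Tg library, although these spread more widely than the WT libraries (log2 change 1.55 ± 0.15, adjusted p = 1.92e-06). Sfrp2 was at 130, 115 and 148 FPKM in WT and at 38.4, 37.3 and 34.4 FPKM in NFIA-Tg. WT was 3.57 times as high, the opposite order to Sfrp1 (log2 change −1.80 ± 0.11, adjusted p = 4.53e-08). Sfrp5 had 0 reads in all 6 day 0 libraries, which allows at most 0.0552 to 0.0758 FPKM per library (3 reads, counting error only).

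Both Dickkopf transcripts were lower in NFIA-Tg at day 0. Dkk2, an LRP5/6 ligand, was at 22.8, 25 and 23.7 FPKM in WT and at 7.95, 15.1 and 10.2 FPKM in NFIA-Tg (log2 change −1.08 ± 0.15, adjusted p = 5.74e-05). The groups did not overlap, and the NFIA-Tg libraries differed among themselves by more than the WT libraries did. Dkk3 was at 27.2, 28.3 and 26.2 FPKM in WT and at 10.7, 13.8 and 13.2 FPKM in NFIA-Tg (log2 change −1.06 ± 0.09, adjusted p = 8.96e-07). WT was 2.15 times as high for Dkk2 and 2.17 times for Dkk3.

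The receptors and Axin2 were higher in NFIA-Tg at day 0. Fzd1 was at 54, 55.9 and 54.8 FPKM in WT and at 111, 116 and 115 FPKM in NFIA-Tg, 2.07 times as high (log2 change 1.04 ± 0.06, adjusted p = 1.40e-08). Fzd4 was at 7.03, 6.64 and 6.85 FPKM in WT and at 19.9, 24.7 and 21.3 FPKM in NFIA-Tg, 3.21 times as high (log2 change 1.55 ± 0.06, adjusted p = 1.34e-09). Both Frizzled receptors were thus separated by genotype with little spread. Lrp5, the co-receptor, differed by less, at 18.1 to 18.9 FPKM in WT and 21.3 to 21.6 FPKM in NFIA-Tg (log2 change 0.21 ± 0.04, adjusted p = 0.00103). Axin2 was low in both groups, at 0.253, 0.192 and 0.255 FPKM (18 to 27 reads) in WT and at 1.16, 1.35 and 1.09 FPKM (103 to 156 reads) in NFIA-Tg. The mean ratio was 5.15, while the log2 change on the scale used was only 0.83 ± 0.07 (adjusted p = 4.58e-07), and it was 2.34 by limma-voom on the recovered reads.

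**Figure D2:**
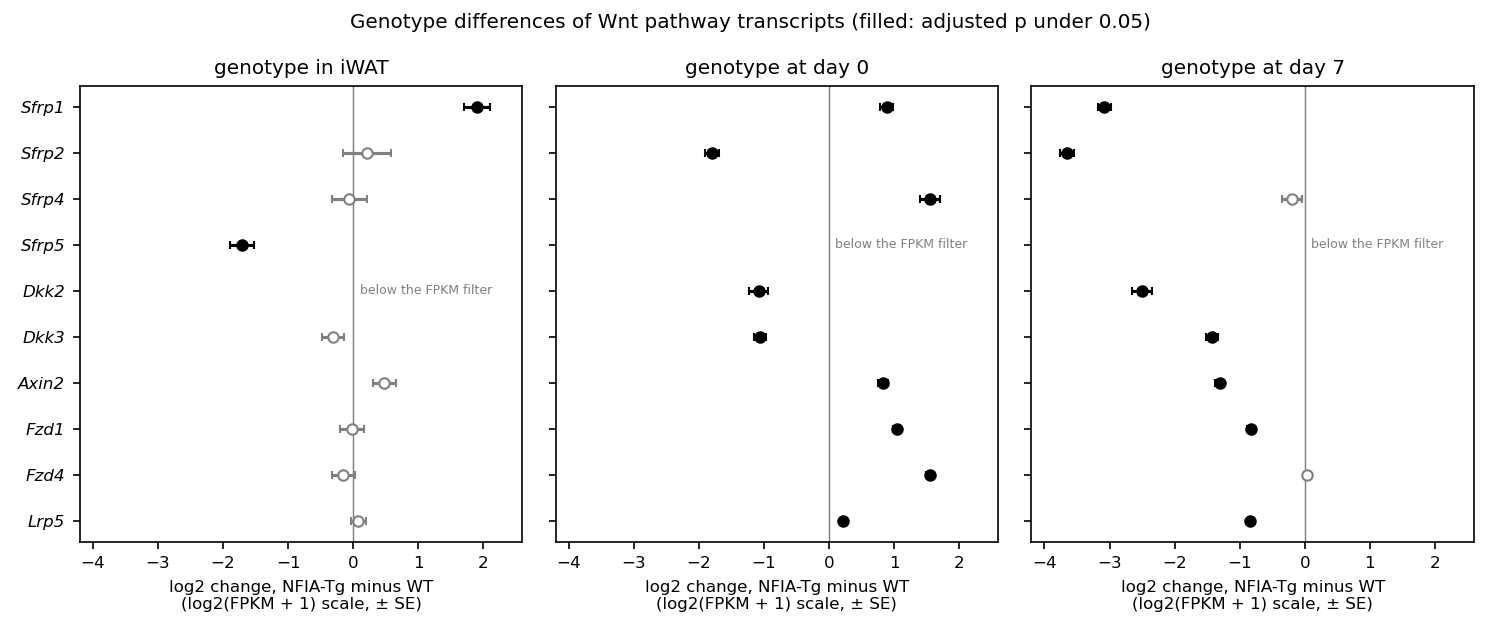
Log2 change (NFIA-Tg minus WT, on the log2(FPKM + 1) scale, ± SE) of the 10 genes in iWAT, at day 0 and at day 7, from 3 libraries a group. Filled circles mark an adjusted p under 0.05. Sfrp1 is at 1.90 in iWAT, 0.89 at day 0 and −3.08 at day 7, and Sfrp5 (cultures) and Dkk2 (iWAT) did not pass the filter.

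At day 7 the cultures labelled NFIA-Tg had less transcript of 7 of the 9 genes than WT and more of none that passed the test. The share called in either direction was close to the background, at 80.9% of 12553 genes (29.8% higher, 51.1% lower). That share alone says little about these genes, while their calls lay more on the lower side. The median log2 change was −1.31 over the 9 genes and −0.17 over all genes. Sfrp1 was at 59.5, 69.4 and 82 FPKM in WT and at 6.43, 8.26 and 7.42 FPKM in NFIA-Tg. The order of day 0 was turned round, with WT 9.54 times as high (log2 change −3.08 ± 0.10, adjusted p = 4.56e-11). Sfrp2 was at 30.5, 34.3 and 32.6 FPKM in WT and at 1.21, 2.12 and 1.73 FPKM in NFIA-Tg. Sfrp2 kept the order of day 0 with a wider gap, 19.3 times (log2 change −3.65 ± 0.11, adjusted p = 2.32e-11). Sfrp4 was at 2.02, 3.16 and 3.31 FPKM in WT and at 2.36, 2.01 and 2.51 FPKM in NFIA-Tg. The Sfrp4 groups overlapped (log2 change −0.20 ± 0.15, adjusted p = 0.226), and without WT day 7 replicate 1, the lowest of its group, adjusted p was 0.0267. Sfrp5 had 10, 8 and 10 reads in WT (0.197 to 0.239 FPKM) and 0, 1 and 0 reads in NFIA-Tg, too few for the filter.

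Dickkopf transcripts were scarce at day 7 in the libraries labelled NFIA-Tg. Dkk2 was at 6.66, 6.99 and 7.06 FPKM in WT and at 0.285, 0.440 and 0.483 FPKM (28 to 43 reads) in NFIA-Tg. WT was 17.2 times as high (log2 change −2.50 ± 0.15, adjusted p = 1.01e-08), and limma-voom on recovered reads gave −4.15. Dkk3 was at 1.5, 2.02 and 2.05 FPKM (135 to 162 reads) in WT and had 6, 10 and 0 reads in NFIA-Tg. Each WT library was far above every library labelled NFIA-Tg (log2 change −1.43 ± 0.09, adjusted p = 1.91e-08, and −5.33 by limma-voom).

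Axin2 and 2 of the 3 receptors were also lower in NFIA-Tg at day 7. Axin2 was at 1.8, 1.79 and 2.08 FPKM (163 to 195 reads) in WT and at 0.204, 0.0979 and 0.182 FPKM (11 to 23 reads) in NFIA-Tg. WT was 11.7 times as high, the reverse of day 0 (log2 change −1.31 ± 0.07, adjusted p = 2.11e-09, and −3.59 by limma-voom). Fzd1 was at 16.5 to 19.1 FPKM in WT and 8.65 to 9.79 FPKM in NFIA-Tg (log2 change −0.83 ± 0.06, adjusted p = 2.82e-08). Lrp5 was at 21.7 to 23.5 FPKM in WT and 11.7 to 12.8 FPKM in NFIA-Tg (log2 change −0.84 ± 0.04, adjusted p = 1.86e-09). WT was 1.87 times as high for Fzd1 and 1.85 times for Lrp5. Fzd4 was at 22.2, 23.1 and 22.8 FPKM in WT and at 23.8, 24 and 22.3 FPKM in NFIA-Tg, with overlapping groups (log2 change 0.04 ± 0.06, adjusted p = 0.559). With median-of-ratios scaling or quantile normalization Fzd4 was called higher at day 7 (log2 changes 0.18 and 0.16).

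The genotype comparisons at day 0 and day 7 rest on the means of separate libraries. They share the fit to all 12 culture libraries, with its estimate of the spread and its filter. Their calls are set side by side as a description. Sfrp1, Axin2, Fzd1 and Lrp5 were higher in NFIA-Tg at day 0 and lower at day 7, a pattern held by 12.3% of all genes tested and also by Nfia. Sfrp2, Dkk2 and Dkk3 were lower at both times, as were 22.5% of all genes. Sfrp4 and Fzd4 were higher at day 0 and not called at day 7, as were 4.87% of all genes.

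Fibroblast and progenitor markers moved beside these genes. Their summed level over 8 genes was 4790 to 4970 FPKM in WT and 5170 to 5830 FPKM in NFIA-Tg at day 0, and 1050 to 1190 and 236 to 321 FPKM at day 7. Of the 7 tested, 3 were higher and 0 lower at day 0, and 1 higher and 6 lower at day 7. Of all genes 63.0% were called at day 0 (28.1% higher, 34.9% lower). At day 7 80.9% were called (29.8% higher, 51.1% lower), so a call of a marker was common in itself. Pericyte and smooth muscle markers (8 genes) summed to 673 to 840 FPKM in WT and 495 to 608 FPKM in NFIA-Tg at day 0, with 2 higher and 4 lower of 7 tested. At day 7 they summed to 112 to 130 and 52.9 to 59.1 FPKM, with 2 higher and 5 lower of 7. Adipocyte marker sums (8 genes) were 147 to 172 and 535 to 588 FPKM at day 0, with 5 higher and 0 lower of 7 tested. At day 7 the sums overlapped, at 26100 to 30300 and 27200 to 30600 FPKM, and most of each was Fabp4 (means 22200 and 25700 FPKM, not called). Of the 7 adipocyte markers tested at day 7, 0 were higher and 3 lower, namely Adipoq (1290 to 258 FPKM), Car3 (419 to 43.9 FPKM) and Cidec (1350 to 759 FPKM). Fabp4, Car3 and Cidec lay outside the naming rule and are named after their values were seen. Pparg, the master regulator of adipogenesis, was not called at day 7 (adjusted p = 0.504) and was higher in NFIA-Tg at day 0 (log2 change 1.79 ± 0.05, adjusted p = 6.05e-11). In the 12 culture libraries endothelial marker sums were 2.27 to 9.25 FPKM, with 0 higher and 1 lower of 3 tested at day 0, and 1 higher and 2 lower at day 7. Macrophage marker sums were 8.67 to 9.41 FPKM in WT and 13.1 to 15.2 FPKM in NFIA-Tg at day 0. At day 7 these sums were 4.05 to 4.24 and 7.33 to 7.69 FPKM. Of 3 macrophage markers tested, 3 were higher at day 0, and 1 was higher and 1 lower at day 7. The part of the share or state of undifferentiated cells in the Wnt gene differences was not tested.

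Between day 0 and day 7 Sfrp1, Sfrp2, Sfrp4, Dkk2, Dkk3 and Fzd1 fell in both genotypes, while Axin2, Lrp5 and Fzd4 rose in WT cultures. Sfrp5 did not pass the filter, with 0 reads in every WT day 0 library and 10, 8 and 10 reads at WT day 7. In WT cultures 9 of the 9 genes tested were called between day 0 and day 7, 3 higher and 6 lower, against 81.6% of all genes in either direction (46.2% higher, 35.4% lower). In the cultures labelled NFIA-Tg 8 of 9 were called, 0 higher and 8 lower, against 87.2% of all genes (45.7% higher, 41.5% lower). The counts called in either direction lay near these shares, and alone they say little about the set. By direction, a larger part of the 9 genes than of all genes was lower, in both genotypes. The genes were chosen with earlier results of these data known, so this is a description and no test of the set. The median log2 change was −1.60 in WT and −3.07 in NFIA-Tg over the 9 genes, and 0.09 and 0.05 over all genes. Sfrp1 dropped to its day 7 level from one 5.54 times as high in WT and 98 times as high in NFIA-Tg (log2 changes −2.46 ± 0.10 and −6.44 ± 0.10). Sfrp2 fell by log2 changes of −1.97 ± 0.11 and −3.82 ± 0.11, Sfrp4 by −1.12 ± 0.15 and −2.88 ± 0.15, Dkk2 by −1.65 ± 0.15 and −3.07 ± 0.15, and Dkk3 by −3.31 ± 0.09 and −3.68 ± 0.09, in WT and NFIA-Tg. At low levels the scale compresses these values, and by limma-voom the NFIA-Tg changes were −8.11 for Dkk3 and −4.80 for Dkk2, against −3.90 and −1.79 in WT. Fzd1 fell as well, by −1.60 ± 0.06 and −3.48 ± 0.06. Adjusted p for these falls was 1.47e-05 or smaller.

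Axin2, Lrp5 and Fzd4 rose in WT cultures. Axin2 went up 8.08 times in WT (log2 change 1.23 ± 0.07, adjusted p = 2.73e-09) and down in NFIA-Tg (−0.92 ± 0.07, adjusted p = 3.26e-08). Lrp5 rose slightly in WT (0.29 ± 0.04, adjusted p = 3.54e-05) and fell in NFIA-Tg (−0.75 ± 0.04, adjusted p = 2.14e-09). This pair had opposite calls in the genotypes, as did 5.23% of all genes in the same direction. Fzd4 rose 3.32 times in WT (1.60 ± 0.06, adjusted p = 1.14e-10) and was not called in NFIA-Tg (0.09 ± 0.06, adjusted p = 0.200). The NFIA-Tg cultures already held Fzd4 at 19.9 to 24.7 FPKM on day 0, against 22.2 to 23.1 FPKM in WT on day 7. In NFIA-Tg the sign of the Fzd4 change depended on scaling, at −0.16 with TPM, and the change was called higher without NFIA-Tg day 0 replicate 2 (0.18, adjusted p = 0.00537).

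The test of the difference between the genotypes' responses was called for 9 of 9 genes, each more negative in NFIA-Tg, against 72.1% of all genes called in either direction (29.5% higher, 42.6% lower). The difference was −3.98 ± 0.15 for Sfrp1 (adjusted p = 2.80e-10), −2.15 ± 0.10 for Axin2 (1.29e-09) and −1.87 ± 0.08 for Fzd1 (9.14e-10). It was −1.85 ± 0.16 for Sfrp2, −1.76 ± 0.21 for Sfrp4, −1.50 ± 0.09 for Fzd4, −1.42 ± 0.22 for Dkk2 and −1.04 ± 0.06 for Lrp5 (adjusted p of 7.80e-05 or smaller). The order of these sizes depends on the scale: by limma-voom Axin2 was at −5.93, Dkk3 at −4.21, Sfrp1 at −4.15, Dkk2 at −3.01 and Lrp5 at −1.11. On the log2(FPKM + 1) scale Dkk3 differed by −0.36 ± 0.13 (adjusted p = 0.0261), a call lost with quantile normalization (0.0601). It was also lost without any of 6 libraries, namely WT day 0 replicate 3, WT day 7 replicate 2 or 3, NFIA-Tg day 0 replicate 2 or 3, or NFIA-Tg day 7 replicate 3 (0.0575 to 0.0668). By limma-voom the adjusted p for Dkk3 was 8.76e-05.

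**Figure D3:**
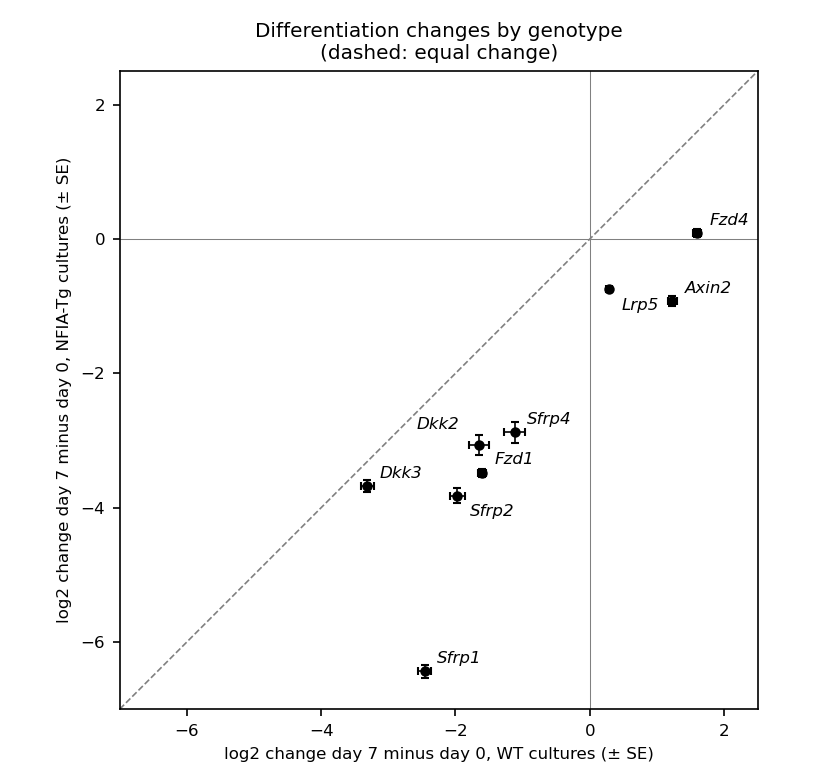
Log2 change from day 0 to day 7 (log2(FPKM + 1) scale, ± SE) in WT cultures on the x axis and in cultures labelled NFIA-Tg on the y axis, for the 9 genes tested. The dashed line marks equal change. All 9 points lie below it, with Sfrp1 at −2.46 and −6.44 and Axin2 at 1.23 and −0.92.

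The order of levels in the cultures differed from gene to gene. Sfrp1 and Fzd1 ran from NFIA-Tg day 0 through WT day 0 and WT day 7 to NFIA-Tg day 7, with no overlap between neighbours. Sfrp2, Dkk2 and Dkk3 ran from WT day 0 through NFIA-Tg day 0 and WT day 7 to NFIA-Tg day 7, again with no overlap. Sfrp4 followed the order of Sfrp1, but its day 7 groups overlapped. Axin2 was highest in WT day 7 (1.89 ± 0.167 FPKM), then in NFIA-Tg day 0 (1.2 ± 0.135 FPKM), while WT day 0 and NFIA-Tg day 7 overlapped at the bottom. For Lrp5 the order was WT day 7, NFIA-Tg day 0, WT day 0 and NFIA-Tg day 7, with no overlap. For Fzd4, 3 groups overlapped near 22 to 23.4 FPKM and WT day 0 lay apart at 6.84 FPKM. Across the 12 culture libraries Sfrp2 and Dkk2 ran most closely together of the pairs within the set (Pearson r = 0.99 on log2(FPKM + 1)), and Sfrp1 and Fzd1 had r of 0.96. These correlations rest on 4 groups and are a description.

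In the tissue the order among genes was another one. The iWAT and culture tables list different numbers of symbols and may have been made separately, so levels across them were not tested. Within WT iWAT, Sfrp5 led with 467 FPKM, followed by Fzd4, Lrp5 and Fzd1 at 77.8, 40 and 20.3 FPKM, and Sfrp2, Sfrp4, Axin2, Dkk3, Sfrp1 and Dkk2 lay at 9.5 FPKM or less. Within WT day 0 cultures Sfrp1, Sfrp2 and Fzd1 led with 389, 131 and 54.9 FPKM. Within WT day 7 cultures the same 3 genes were joined by Lrp5 and Fzd4, all at 17.4 to 70.3 FPKM. Neither culture stage had the abundant Sfrp5 of the tissue.

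The genotype difference in iWAT was set against that at day 7 in 1 fit to those 12 libraries. Of the 10 genes, 8 were called, 7 with a higher and 1 with a lower value in iWAT, against 54.3% of all 13103 genes in either direction (35.8% higher, 18.5% lower). The medians were 1.01 over the 10 genes and 0.18 over all genes. Sfrp1 was higher in NFIA-Tg iWAT and lower in NFIA-Tg at day 7, a difference of 4.99 ± 0.25 (adjusted p = 4.20e-08). Sfrp2 followed with 3.86 ± 0.44 (adjusted p = 1.98e-05), Dkk2 with 2.45 ± 0.18 (5.34e-07) and Axin2 with 1.79 ± 0.20 (1.48e-05). Dkk2 was under 1 FPKM in all 6 iWAT libraries and passed the filter only through WT day 7, so its value restates the day 7 difference. Dkk3, Lrp5 and Fzd1 differed by 1.12, 0.91 and 0.82 (adjusted p of 0.00629 or smaller), and Sfrp4 and Fzd4 were not called (0.14 ± 0.34 and −0.19 ± 0.20). For Sfrp5 the difference was −1.44 ± 0.20 (adjusted p = 8.43e-05), but its day 7 values were near 0, and with an added 0.1 FPKM in place of 1 it was −0.15 (adjusted p = 0.611).

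A wider list of 78 other Wnt pathway genes, also chosen with earlier results of these data known, gave the surroundings. In iWAT 41 were tested, 0 were higher and 4 lower in NFIA-Tg, with a median of 0.09, while 11.4% of all genes were called (5.96% higher, 5.44% lower). Nkd1, an inducible inhibitor of Dishevelled, fell from 23.5, 16.8 and 20.3 FPKM to 6.73, 4.68 and 3.07 FPKM (log2 change −1.90 ± 0.23, adjusted p = 0.00275), while Axin2, another feedback gene, was not called. Wnt8b, a Wnt ligand, was at 1.16, 1.07 and 1.82 FPKM in WT (adjusted p = 0.00654). In NFIA-Tg it was at 0.121 FPKM in 1 library and listed at 0 in the others. Wnt8b thus passed the filter only through WT, the group where it is high, and its place among the 4 calls rests on that. Fzd2, a Frizzled receptor, fell by 0.85 on the log2 scale (adjusted p = 0.0436), a call lost without any of the 6 libraries in turn (0.0613 to 0.111) and with no filter (0.0943). Without WT replicate 3 the list had 2 calls in place of 4. The fourth gene, Ctnnbip1, an inhibitor of β-catenin and TCF binding, lay outside the naming rule and is named after its values were seen (log2 change −0.71, adjusted p = 0.00913).

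At day 0, 53 genes of the wider list were tested, 21 higher and 15 lower in NFIA-Tg, with a median of 0.00. Of all genes 63.0% were called (28.1% higher, 34.9% lower). Wnt ligands had 5 higher and 2 lower of 8 tested, and nuclear factors 5 higher and 1 lower of 7. Wnt4 rose from 0.402 to 5.69 FPKM (log2 change 2.25 ± 0.08) and Wnt2 from 0.291 to 3.65 FPKM (1.85 ± 0.11). Nkd1 rose from 0.678 to 6.64 FPKM (2.19 ± 0.08), the same direction as Axin2 in these cultures. The R-spondin receptors Lgr5 and Lgr6 fell from 3.46 to 0.489 FPKM (−1.59 ± 0.07) and from 2.69 to 0.619 FPKM (−1.18 ± 0.11). Wnt10b, a ligand known for blocking adipogenesis, fell from 1.87 to 0.530 FPKM (−0.91 ± 0.09). Adjusted p for these genes was 1.84e-06 or smaller. All 6 were low in at least 1 group, and by limma-voom their changes were larger (3.79 for Wnt4, 3.81 for Wnt2, 3.32 for Nkd1, −2.84 for Lgr5, −2.07 for Lgr6 and −1.85 for Wnt10b). In the cultures Wnt4, Wnt2 and Nkd1 reached 1 FPKM only in NFIA-Tg day 0 libraries, and Wnt10b only in WT day 0 libraries. Lgr5 and Lgr6 reached it only in WT libraries, at day 0 and in part at day 7. All 6 thus passed the filter only through libraries of the genotype where they are high, which bears on their calls and on the ligand counts.

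At day 7, 7 genes of the wider list were higher and 38 lower of 53 tested, with a median of −0.54. Of all genes 80.9% were called (29.8% higher, 51.1% lower), so a call in itself was common. Receptors and co-receptors had 1 higher and 10 lower of 11 tested, and nuclear factors 0 higher and 7 lower of 7. Porcn, the acyltransferase that lipid-modifies Wnt ligands, went the other way, from 2.52, 2.4 and 1.88 FPKM in WT to 53.4, 42.7 and 41.6 FPKM in NFIA-Tg (log2 change 3.84 ± 0.10, adjusted p = 5.56e-12). The receptor Fzd6 rose from 0.870 to 3.44 FPKM (1.24 ± 0.11, and 1.95 by limma-voom), and Wnt5a, a ligand of non-canonical signalling, from 1.79 to 4.37 FPKM (0.94 ± 0.05). Apcdd1, a membrane inhibitor of Wnt signalling, fell from 31.7 to 3.22 FPKM (−2.96 ± 0.06). Ccn5, a matricellular protein listed as Wisp2 in the culture tables, fell from 52.6 to 9.28 FPKM (−2.39 ± 0.15), and the co-receptor Ptk7 from 8.03 to 0.859 FPKM (−2.28 ± 0.06). Adjusted p for these 5 was 3.04e-07 or smaller.

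**Figure D4:**
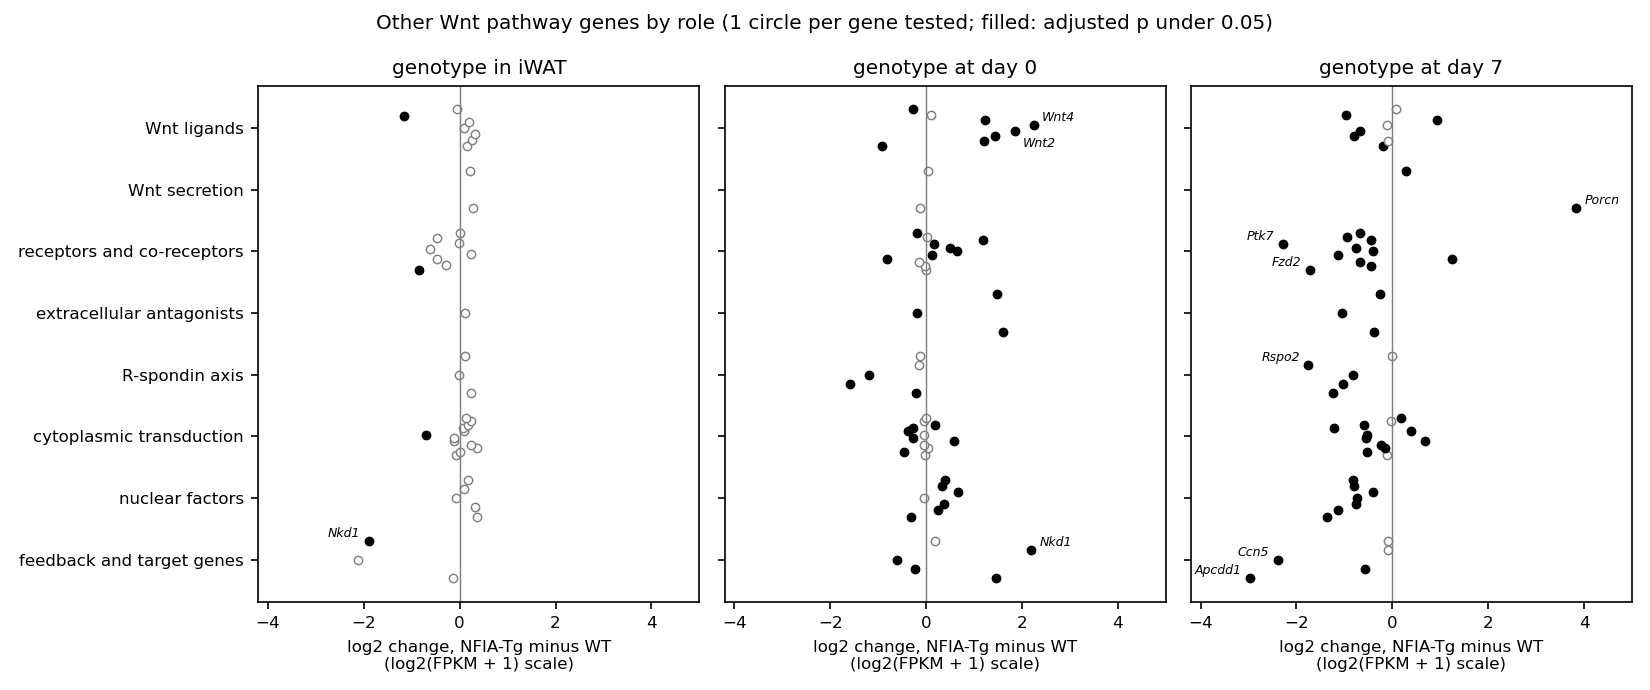
Log2 change (NFIA-Tg minus WT, log2(FPKM + 1) scale) of each tested gene of the wider Wnt list, 1 circle per gene, grouped by role, in iWAT, at day 0 and at day 7. Filled circles mark an adjusted p under 0.05. In iWAT 4 of 41 circles are filled, and at day 7 Porcn stands at 3.84 while 38 of 53 are filled on the lower side.

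During differentiation of WT cultures 11 genes of the wider list were higher and 35 lower of 53 tested, with a median of −0.37, and of NFIA-Tg cultures 6 were higher and 44 lower, with a median of −1.16. Of all genes 81.6% were called in WT (46.2% higher, 35.4% lower) and 87.2% in NFIA-Tg (45.7% higher, 41.5% lower). The list was near these shares in either direction, while its calls lay more on the lower side. In WT, Ccn4 (Wisp1 in the tables), the ligand Wnt16 and the secreted agonist Rspo2 had the largest falls (log2 changes −3.10, −2.88 and −2.79). Apcdd1, Gsk3a and Fzd3 had the largest rises (1.57, 0.75 and 0.46). Fzd3 reached 1 FPKM only in WT day 7 libraries, so it passed the filter only through the group where it is high. In NFIA-Tg the largest falls were in Wnt16, Ptk7 and Rspo2 (−5.12, −4.42 and −4.40) and the largest rises in Porcn, Fzd6 and Dvl1 (3.09, 0.86 and 0.85). By limma-voom Wnt16 was at −8.15 and Rspo2 at −7.09 in NFIA-Tg. The difference between genotypes was largest upwards for Porcn, Fzd6 and Dvl1 (3.97, 2.06 and 0.76) and downwards for Apcdd1, Wnt2 and Ptk7 (−4.41, −2.51 and −2.45). By limma-voom Wnt2, a low gene that passed the filter only through NFIA-Tg day 0, came before Apcdd1 (−7.95 and −4.84). Ptk7 was at −3.41 and Fzd6 at 3.13. In the comparison of iWAT with day 7, Apcdd1, Rspo2 and Ptk7 were furthest above (2.81, 1.82 and 1.80) and Porcn, Nkd1 and Fzd6 furthest below (−3.57, −1.82 and −1.72). Rspo2 was near 0 in iWAT (means of 0.0345 FPKM in WT and 0.0837 FPKM in NFIA-Tg), so its value restates its day 7 fall, and Nkd1 was under 1 FPKM in all day 7 libraries, so its value restates the iWAT fall. Adjusted p for all these was 0.000146 or smaller.

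Genes outside the Wnt lists with the most similar profile were found by Pearson correlation of log2(FPKM + 1) over the 12 culture libraries among 8687 genes. For Sfrp1 these were Ece1 and Mrgprf (r = 0.999 for both), and for Fzd1 Cnrip1 and Ass1 (0.999 and 0.997). For Sfrp2 they were Elf4 and Coro1c (0.997 and 0.996), for Dkk2 Stx2 and Hacd4 (0.995 and 0.994), and for Dkk3 Cd276 and Fam20a (0.998 for both). For Sfrp4 they were Gramd4 and Mdm2 (0.995 and 0.994), and for Lrp5 Col4a2 and Scaf1 (0.994 and 0.991). Axin2 ran with Adamts9 and Aldh4a1 (0.982 and 0.981), and Fzd4 with Dpep1 and Aoc3 (0.981 and 0.977). For Sfrp5, whose 12 values rest on at most 10 reads each, Hipk2 and Chst11 came out (0.991 for both). With 4 tight groups behind 12 libraries, high values of r are common and describe the order of the groups.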

How the data were processed

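Polyadenylated RNA was sequenced from stranded libraries, per the labels' protocols. The authors deposited 1 FPKM value and a length per gene and library, per the file headers. Per the submitters' processing notes the tools were STAR (2.7.8a) and StringTie (2.1.1) and the build mm9, with no roles given, and culture headers carry the name of a STAR table of reads per gene. The sources used here give no annotation, strand setting or rule for multi-mapping reads. In cultures FPKM times length gave whole reads for 100% of values (tolerance 0.01), which gives the depth. In iWAT it did not, and 410 entries sharing 180 symbols were summed, none of them a gene of the set. Culture symbols Wisp1 and Wisp2 were matched to Ccn4 and Ccn5 through a RefSeq table.

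Samples were grouped by title. Tests used limma 3.58.1 (R 4.3.3), eBayes with trend, on log2(FPKM + 1) for genes at 1 FPKM or more in at least 3 fitted libraries, two-sided, Benjamini-Hochberg adjusted over all genes tested. Genotype in iWAT was fitted on 6 libraries, the culture comparisons on 12 together, and iWAT against day 7 on 12. The code was tested on simulated data. The alternatives tried were other pseudocounts (0.1 and 0.5), a filter at FPKM 5 or none, TPM, median-of-ratios or quantile scaling, eBayes without trend or robust, a replicate block, leaving out each library, the highest entry per symbol, and limma-voom on recovered reads. The named genes are the 10 of the set, Nfia, Pparg and Adipoq, the 3 largest called rises and falls of the wider Wnt list per comparison (where the higher group's mean reached 1 FPKM), and the 2 most similar genes per member (mean of at least 5 FPKM). Members and lists were chosen with earlier results of these data known. Reads can be shared by overlapping genes, and intervals for 0 reads cover counting error only.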

Additional observations from a re-analysis of the deposited data

Results flagged for a closer look

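The genotype difference of these genes was not the same in different settings, by direct tests with limma (interaction terms, values as log2 differences). Between differentiation in NFIA-Tg and in WT cultures it was −3.98 for Sfrp1, −1.85 for Sfrp2, −1.76 for Sfrp4, −1.42 for Dkk2, −0.36 for Dkk3 (a call lost in 7 of 23 alternatives), −2.15 for Axin2, −1.87 for Fzd1, −1.50 for Fzd4 and −1.04 for Lrp5. Between the genotype effect in iWAT and at day 7 it was 4.99 for Sfrp1, 3.86 for Sfrp2, −1.44 for Sfrp5 (−0.15, adjusted p = 0.611, with an added 0.1 FPKM), 2.45 for Dkk2 (under 1 FPKM in iWAT), 1.12 for Dkk3, 1.79 for Axin2, 0.82 for Fzd1 and 0.91 for Lrp5, and Sfrp4 and Fzd4 were not called. Nfia itself differed in the same 2 tests by −1.56 and 5.56. Nfia at day 7 went against the labels, and its part in these differences was not tested. Groups of 3 libraries were too small for a test of outlying libraries.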

How the results depend on the processing

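Of 64 results for the 10 genes (a gene in a comparison), 59 kept their side of the threshold under each alternative run. So did 45 of 46 results for the other named genes. No called result among these changed direction, while some uncalled ones did, such as Fzd1 in iWAT (−0.22 to 0.17). The exceptions among the 10 were Sfrp4 and Fzd4 at day 7, Fzd4 during differentiation in NFIA-Tg, Dkk3 in the genotype by differentiation test and Sfrp5 in iWAT against day 7. Fzd4 in NFIA-Tg turned to −0.16 with TPM scaling (adjusted p = 0.0485), and the cause was not tested. The other exception was Fzd2 in iWAT. Sfrp5 in the cultures and Dkk2 in iWAT did not pass the filter and are not among the 64. With no filter, 8 of the 10 genes were called at day 7 in place of 7. For differentiation in WT and for genotype by differentiation it was 10 in place of 9. The number of all genes called in iWAT, 1413, was 934 with no filter, and 617 to 1262 when 1 library was left out (617 without WT replicate 3 and 814 without WT replicate 2, and for NFIA-Tg 638 without replicate 2 and 745 without replicate 3). The wider Wnt list in iWAT had 2 to 4 calls with 1 library left out. Fits without a library have fewer samples. Scaling moved the median log2 change of all genes from −0.17 to −0.03 at day 7 (quantile), from 0.05 to −0.18 for differentiation in NFIA-Tg (TPM) and from 0.18 to 0.01 for iWAT against day 7 (median-of-ratios). The split of calls turned from 739 higher and 674 lower to 602 and 810 in iWAT and from 3533 and 4378 to 3947 and 3878 at day 0 (both median-of-ratios). It went from 3746 higher and 6409 lower to 4671 and 5196 at day 7 (quantile), from 5796 and 4450 to 4632 and 5492 for differentiation in WT (TPM), and from 5741 and 5209 to 4646 and 6308 in NFIA-Tg (TPM). It went from 3701 and 5350 to 4660 and 4371 for genotype by differentiation (quantile) and from 4691 and 2430 to 3323 and 3320 for iWAT against day 7 (median-of-ratios). Whether replicate numbers pair the libraries is not known. Between genotypes, deviations of same-numbered libraries correlated at 0.007 to 0.115 in iWAT, −0.071 to 0.156 at day 0 and −0.062 to 0.084 at day 7. Those of different-numbered libraries correlated at −0.159 to 0.085, −0.187 to 0.114 and −0.132 to 0.152. With 3 libraries a group these values cannot decide it. With the replicate block 1282 genes were called in iWAT, 7822 at day 0, 10136 at day 7, 10239 and 10927 for differentiation in WT and NFIA-Tg, 9027 for genotype by differentiation and 7061 for iWAT against day 7, and no call of the 10 genes changed. Culture tables list each symbol once, so the highest entry per symbol was not run there.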
